A study of Mus musculus with 12 samples.

Results

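The NR4A and EGR families are transcription factors that T cells switch on within a short time of antigen contact, and 10 such early response genes of mouse regulatory T cells (Treg cells) are described here: Nr4a1, Nr4a2, Nr4a3, Egr1, Egr2, Egr3, Cd69, Cd83, Myc and Dusp2. They were chosen by name, with earlier results of these data known, and found by gene symbol in the deposited count and FPKM tables. They are 10 of the 55413 genes listed, all 10 had counts, and all 10 were among the 15705 genes that passed the filter on low counts.

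The series compared Treg cells of tumors with those of lymph nodes by bulk RNA sequencing of 12 libraries. The tumor groups were 3 libraries of tumor pTreg, Treg cells that, by the title of the series, had been converted from T helper 1 cells, and 5 libraries of tumor tTreg, the transferred thymic Treg cells. The remaining 4 libraries held total Treg cells of lymph nodes of mice without tumors (LN Treg). For the tumors, tTreg cells from spleen and lymph nodes of CD45.1 Foxp3YFP-cre donors were mixed with conventional Foxp3- CD4 cells and CD8 cells of CD45.2 Foxp3YFP-cre donors at 1 to 10 to 8 and given to TCRbd-/- hosts, which have no T cells of their own. Hepa1-6 cells, a mouse hepatoma line, were inoculated 3 days later and Treg cells were sorted on day 18. The labels give every library of the 3 groups the same genotype entry, Foxp3YFP-cre and TCRbd-/-, no age, and no statement that libraries came from separate animals. The spread behind the p-values below is that between these libraries and may be technical.

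The members act at several steps of the antigen response. Calcium and MAP kinase signals below the T cell receptor induce Nr4a1 (Nur77), Nr4a2 (Nurr1) and Nr4a3 (Nor1), orphan nuclear receptors that bind DNA without a known ligand and that, in mouse Treg cells, help to maintain the lineage and the expression of Foxp3. Egr1, Egr2 and Egr3 encode zinc finger factors downstream of ERK, held back by the corepressors Nab1 and Nab2, and Egr2 and Egr3 are known in T cells for the anergy programme. Cd69 encodes a surface lectin that keeps activated lymphocytes in tissue, Cd83 an immunoglobulin family protein of activated lymphocytes and mature dendritic cells, Myc the factor that drives growth and metabolism, and Dusp2 a nuclear phosphatase that switches MAP kinases off. Most of these genes also respond early in macrophages, dendritic cells and other cells, and none is expressed by T cells alone.

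By GENCODE vM21 (build GRCm38), all 10 are protein-coding genes that no other annotated gene overlaps. Nr4a1 lies at chr15:101254269-101274795, Nr4a2 at chr2:57106830-57124003 on the minus strand and Nr4a3 at chr4:48045153-48086447. Egr2 lies at chr10:67535475-67542188 and Egr3 at chr14:70077203-70082614. Cd69 lies at chr6:129267325-129275436 on the minus strand, Cd83 at chr13:43784775-43803132, Myc at chr15:61985391-61990374 and Dusp2 at chr2:127336159-127338376, all on the plus strand where no strand is named.

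Promoter windows were read for 5 of the 10 genes from a RefSeq table (GRCm38.p6), each running from 250 bases before to 50 bases after an annotated start, and they are shown because calcium and ERK signals are known to reach early response genes through elements of the kinds marked. Capitals mark, on either strand, the core of the cAMP response element (TGACG), the EGR site (GCGNGGGCG) and the CArG box bound by serum response factor. The NR4A element (AAAGGTCA) and the AP-1 site (TGANTCA) were also searched and had 0 matches in the windows printed, and no 2 marked matches overlapped. The windows lie at chr15:101266596-101266895 for Nr4a1, chr2:57123954-57124253 on the minus strand for Nr4a2, chr4:48045055-48045354 for Nr4a3, chr10:67537619-67537918 for Egr2 and chr2:127335909-127336208 for Dusp2, and each is printed from 5′ to 3′ along its gene.
Nr4a1: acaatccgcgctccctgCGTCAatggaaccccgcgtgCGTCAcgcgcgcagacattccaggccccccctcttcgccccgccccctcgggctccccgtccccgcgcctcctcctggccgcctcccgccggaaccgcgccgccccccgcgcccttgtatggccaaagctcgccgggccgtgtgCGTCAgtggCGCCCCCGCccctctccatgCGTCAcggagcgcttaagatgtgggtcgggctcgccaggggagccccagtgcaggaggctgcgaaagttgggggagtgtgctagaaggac
Nr4a2: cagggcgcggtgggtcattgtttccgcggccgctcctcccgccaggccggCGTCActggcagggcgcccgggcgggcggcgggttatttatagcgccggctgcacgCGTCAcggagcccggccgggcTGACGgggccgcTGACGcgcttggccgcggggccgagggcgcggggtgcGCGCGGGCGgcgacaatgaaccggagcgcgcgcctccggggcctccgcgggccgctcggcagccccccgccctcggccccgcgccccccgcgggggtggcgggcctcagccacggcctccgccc
Nr4a3: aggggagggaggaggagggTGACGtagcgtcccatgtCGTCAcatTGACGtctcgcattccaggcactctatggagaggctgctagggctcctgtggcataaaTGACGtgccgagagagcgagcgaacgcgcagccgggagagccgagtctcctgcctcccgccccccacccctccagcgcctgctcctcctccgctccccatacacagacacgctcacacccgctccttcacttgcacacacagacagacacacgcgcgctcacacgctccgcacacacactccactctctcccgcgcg
Egr2: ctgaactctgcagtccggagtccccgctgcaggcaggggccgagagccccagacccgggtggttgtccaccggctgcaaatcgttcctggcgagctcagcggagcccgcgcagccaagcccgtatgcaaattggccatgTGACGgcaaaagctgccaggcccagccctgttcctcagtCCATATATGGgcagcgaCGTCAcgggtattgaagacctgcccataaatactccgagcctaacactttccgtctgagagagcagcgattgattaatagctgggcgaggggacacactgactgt
Dusp2: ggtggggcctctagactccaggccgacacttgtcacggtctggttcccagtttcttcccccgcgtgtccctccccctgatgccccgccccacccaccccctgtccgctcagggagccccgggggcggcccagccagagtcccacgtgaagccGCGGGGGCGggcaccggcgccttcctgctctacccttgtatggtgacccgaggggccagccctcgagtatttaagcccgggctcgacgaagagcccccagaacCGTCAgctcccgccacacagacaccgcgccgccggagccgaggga

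Each NR4A window held 4 matches to the cAMP response element core. The Egr2 window printed held 2 and the Dusp2 window 1. Egr2 has 5 annotated windows, and the 1 printed was picked after the matches were seen: the windows that start at chr10:67537619, chr10:67537620 and chr10:67537680 overlap and each held 2 of these cores and 1 CArG box, the window from chr10:67537316 held 0 cores and 1 CArG box, and that from chr10:67535249 held 0 matches to any element searched. Among the 32851 windows listed, 20.8% had at least 1 core of the cAMP response element and 0.231% (76 windows) had 4 or more. Exactly 1 EGR site stood in each of the Nr4a1, Nr4a2 and Dusp2 windows, and 5.55% of all windows held at least 1. The CArG box of the Egr2 window printed, an element found in 1.63% of all windows, lay between 72 and 63 bases before the start. The NR4A element and the AP-1 site stood in 1.51% and 7.81% of all windows. The printed windows were rich in G and C (72.3% in Nr4a1, 81.7% in Nr4a2, 64.7% in Nr4a3, 60.0% in Egr2 and 70.7% in Dusp2, against a median of 52.7% over all windows), and the EGR site is itself made of G and C. A match describes letters in a window and is not evidence of binding.

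Depth was 17964300 to 18181000 counts in tumor pTreg libraries, 18107300 to 18510900 in tumor tTreg libraries and 14573900 to 17323900 in LN Treg libraries. T cell transcripts took very different shares of them. A list of 18 pan-T genes (CD3 chains, receptor constant regions, Lck and others) summed to 1361 ± 14.5, 133 ± 3.18 and 6255 ± 69.8 CPM (counts scaled to a library total of 1e6) in tumor pTreg, tumor tTreg and LN Treg, that is 24452 to 24674, 2368 to 2492 and 91520 to 109828 counts. Foxp3, the defining gene of Treg cells, read 20.3 ± 0.583, 8.74 ± 0.478 and 441 ± 11.1 CPM in the same order, and the receptor gene Il2ra 58.9 ± 3.04, 16.6 ± 0.683 and 705 ± 6.42 CPM. Of the 5 Treg and coreceptor markers tested, 1 was higher and 4 lower in tumor pTreg than in LN Treg. The 1 higher was the coreceptor gene Cd8a, at 23.6 ± 0.942, 0.667 ± 0.186 and 8.24 ± 1.13 CPM. In tumor tTreg 0 were higher and 5 lower than in LN Treg. Markers of several other cell types were higher in the tumor groups than in LN Treg: 14 macrophage and monocyte genes summed to 6325 to 6359, 6356 to 6701 and 96.9 to 100.1 CPM, and 10 hepatoma genes to 5386 to 5755, 7957 to 8306 and 7.44 to 9.53 CPM. The dendritic cell list (11 genes) summed to 355 to 376, 429.9 to 442 and 19.8 to 20.6 CPM, the neutrophil list (10 genes) to 449 to 470.3, 428 to 474 and 4.56 to 5.64 CPM, and the fibroblast list (9 genes) to 138 to 158, 677 to 803 and 2.18 to 4.73 CPM. Endothelial genes (8) summed to 42.1 to 49.6, 25.1 to 27.6 and 188 to 194 CPM. B cell genes (8) summed to 3.60 to 4.40, 3.17 to 4.21 and 13.9 to 16.1 CPM. Of 7 endothelial genes tested, 6 were higher and 1 lower in either tumor group than in LN Treg, unlike their sum (edgeR adjusted p under 0.05). The B cell sums overlapped between the tumor groups, where 0 of 6 genes tested were higher and 0 lower by the same test. No marker was at 0 in all libraries of a tumor group, whereas in LN Treg Apoa2 and Fgb (hepatoma), Ly6g and Camp (neutrophil), Col3a1, Lum and Pdgfra (fibroblast) and Tek, Emcn and Cldn5 (endothelium) were. Mitochondrial genes took 4.46 ± 0.178, 5.11 ± 0.198 and 3.999 ± 0.0746% of counts in tumor pTreg, tumor tTreg and LN Treg. Both tumor groups thus lay below LN Treg in the pan-T sum, tumor tTreg furthest, and in both the macrophage and the hepatoma lists summed above the pan-T genes. In bulk RNA fewer T cells and less RNA per T cell cannot be told apart. The part of other cells in the results below was not tested.

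Members were therefore read against the whole library, as CPM with TMM factors (library scale), and against T cell RNA, as counts per 100 pan-T counts (pan-T scale). Calls were made at an adjusted p under 0.05 (edgeR's quasi-likelihood test on all genes, Benjamini-Hochberg). On the library scale 7 of the 10 members were called higher and 2 called lower in tumor pTreg than tumor tTreg, where 26.8% of all genes tested were called higher and 25.3% lower. Against LN Treg, 6 were higher and 4 lower in tumor pTreg (47.6% and 39.8% of all genes), and 6 higher and 3 lower in tumor tTreg (48.1% and 42.3%). The members' median log2 fold changes were 0.38, 1.15 and 0.65 in these 3 comparisons, beside -0.01, 0.12 and 0.10 over all genes tested. The 2 calls missing were Egr2 between the tumor groups and Myc between tumor tTreg and LN Treg. Against LN Treg the members' counts thus lay near the background.

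**Figure D1:**
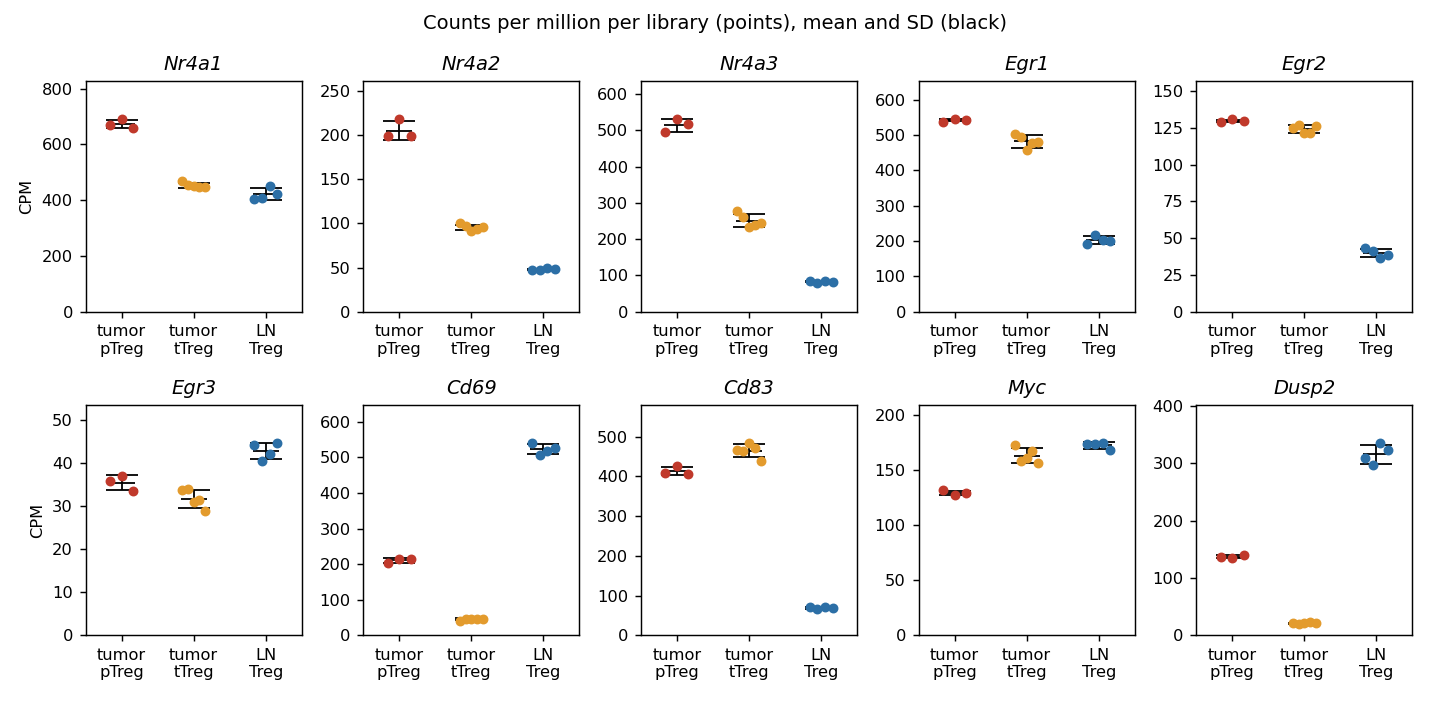
CPM of each of the 10 genes (y axes, each from 0) in every library, in tumor pTreg (n = 3), tumor tTreg (n = 5) and LN Treg (n = 4); points are libraries and black bars the mean and SD. Nr4a2 and Nr4a3 step down over the 3 groups, Egr1, Egr2 and Cd83 are high in both tumor groups, and Cd69 and Dusp2 are lowest in tumor tTreg and highest in LN Treg.

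Nr4a2 and Nr4a3 were highest in tumor pTreg, intermediate in tumor tTreg and lowest in LN Treg. Nr4a2 read 199, 218 and 199 CPM in tumor pTreg, 99.9, 96.9, 91.7, 93.5 and 95.8 CPM in tumor tTreg, and 47.2, 46.9, 49.2 and 48.2 CPM in LN Treg. Nr4a3 read 495, 530.1 and 517 CPM in tumor pTreg, 278, 260.2, 235, 239.7 and 243 CPM in tumor tTreg, and 84.8, 80.4, 83.5 and 83.2 CPM in LN Treg. For both genes the 3 groups did not overlap. Nr4a2 was 2.16-fold higher in tumor pTreg than in tumor tTreg (log2 fold change 1.11, SE 0.0325, edgeR adjusted p = 9.99e-22) and Nr4a3 2.06-fold higher (1.04, SE 0.0364, edgeR adjusted p = 8.26e-20). Against LN Treg, Nr4a2 was 4.60-fold higher in tumor pTreg and 2.13-fold higher in tumor tTreg, and Nr4a3 6.65-fold and 3.24-fold higher.

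Nr4a1, the family member with the highest level per length in each group, moved least. It read 671, 689 and 659 CPM in tumor pTreg, 469, 453, 452, 446 and 446 CPM in tumor tTreg, and 404, 407, 452 and 421 CPM in LN Treg. The tumor pTreg libraries lay above all others, and tumor tTreg and LN Treg overlapped. Nr4a1 was 1.49-fold higher in tumor pTreg than in tumor tTreg (log2 fold change 0.58, SE 0.0314) and 1.72-fold higher than in LN Treg (0.78, SE 0.0333). Between tumor tTreg and LN Treg the log2 fold change was 0.20 (SE 0.0298, edgeR adjusted p = 3.43e-07) by counts and -0.14 (limma on log2 of FPKM + 1, adjusted p = 0.00134) by FPKM, so the direction depends on the unit. Beside these values, summed macrophage markers read 6347 ± 18.9 CPM in tumor pTreg and 6546 ± 126 CPM in tumor tTreg. Of these 14 markers, 3 were called higher, 4 lower and 7 neither in tumor pTreg than in tumor tTreg. Pan-T genes were higher in tumor pTreg by a median of 11.3-fold. The part of T cells or macrophages in the Nr4a1 values was not tested.

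Egr1 and Egr2 were close to each other in pattern, high in both tumor groups and low in LN Treg. Egr1, at chr18:34859823-34864984 on the plus strand (GRCm38), read 538, 544 and 542 CPM in tumor pTreg, 503, 494, 456, 476 and 479 CPM in tumor tTreg, and 192, 217, 202 and 201 CPM in LN Treg. Egr2 read 129, 131 and 129 CPM in tumor pTreg, 125, 127, 121, 122 and 126 CPM in tumor tTreg, and 43.1, 41.2, 36.6 and 38.8 CPM in LN Treg. Neither gene overlapped between groups, but the tumor groups lay close together. Egr1 was 1.13-fold higher in tumor pTreg than in tumor tTreg (log2 fold change 0.18, SE 0.0319, edgeR adjusted p = 3.48e-05), and Egr2 was not called (0.07, SE 0.0336, edgeR adjusted p = 0.0838). Fitted on the tumor groups alone, Egr2 passed (edgeR adjusted p = 0.0453). Against LN Treg, Egr1 was 2.87-fold higher in tumor pTreg and 2.54-fold higher in tumor tTreg, and Egr2 3.50-fold and 3.33-fold higher.

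Egr3, the member with the lowest level per length (FPKM) in each group, went the other way from its relatives against LN Treg. It read 35.8, 37.0 and 33.5 CPM in tumor pTreg, 33.7, 33.9, 31.1, 31.3 and 28.8 CPM in tumor tTreg, and 44.1, 40.6, 42.1 and 44.6 CPM in LN Treg. The LN Treg libraries lay above all tumor libraries, and the tumor groups overlapped. The log2 fold change against LN Treg was -0.17 in tumor pTreg (SE 0.0532, edgeR adjusted p = 0.00394) and -0.34 in tumor tTreg (SE 0.0472, edgeR adjusted p = 1.64e-07). Between the tumor groups it was 0.16 (SE 0.0522, edgeR adjusted p = 0.00939). That call was lost with RLE factors (edgeR adjusted p = 0.0537), with DESeq2 (adjusted p = 0.0986), with FPKM (limma adjusted p 0.205 to 0.232) and without tumor pTreg replicate 2 (edgeR adjusted p = 0.0629).

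The surface genes Cd69 and Cd83 had opposite patterns. Cd69 read 203, 215 and 214 CPM in tumor pTreg, 40.8, 45.1, 46.6, 47.2 and 46.7 CPM in tumor tTreg, and 540.0, 507, 519 and 527 CPM in LN Treg. Cd83 read 409.9, 426 and 406 CPM in tumor pTreg, 466, 464, 484, 472 and 438 CPM in tumor tTreg, and 70.9, 66.5, 71.9 and 68.4 CPM in LN Treg. No groups overlapped for either gene. Cd69 was 4.67-fold higher in tumor pTreg than in tumor tTreg (log2 fold change 2.22, SE 0.0391), 2.31-fold lower in tumor pTreg than in LN Treg and 10.8-fold lower in tumor tTreg than in LN Treg. Cd83 was 1.12-fold lower in tumor pTreg than tumor tTreg (-0.16, SE 0.0309, edgeR adjusted p = 7.99e-05), and 6.40-fold and 7.15-fold higher in tumor pTreg and tumor tTreg than in LN Treg. The order of Cd69 was that of the pan-T genes. The order of Cd83 was that of the summed dendritic cell, hepatoma and fibroblast markers. Mean macrophage sums had that order too but overlapped between the tumor groups. The part of T cells and of these other cells in the Cd69 and Cd83 values was not tested.

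Myc and Egr3 varied least of the 10 by fold between group means. Myc read 132, 128 and 129 CPM in tumor pTreg, 173, 158, 161, 167 and 156 CPM in tumor tTreg, and 174, 174, 174 and 168 CPM in LN Treg. Tumor pTreg lay below the other groups, which overlapped. Myc was 1.25-fold lower in tumor pTreg than tumor tTreg (log2 fold change -0.33, SE 0.0319, edgeR adjusted p = 1.07e-09) and 1.24-fold lower than in LN Treg (-0.31, SE 0.0334, edgeR adjusted p = 1.36e-09). Between tumor tTreg and LN Treg it was not called (0.02, SE 0.0286, edgeR adjusted p = 0.589). With library totals alone it was lower in tumor tTreg (-0.08, edgeR adjusted p = 0.0126), and also with FPKM (-0.11, limma adjusted p 0.00255 to 0.0027). The reading of this comparison thus depends on the scaling and the unit.

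Dusp2 had the largest fold between its highest and lowest group mean among the 10. It read 136, 136 and 141 CPM in tumor pTreg, 21.1, 19.7, 21.1, 22.9 and 21.4 CPM in tumor tTreg, and 309, 297, 335 and 323 CPM in LN Treg. The 3 groups were far apart, with tumor tTreg lowest. Dusp2 was 6.50-fold higher in tumor pTreg than in tumor tTreg (log2 fold change 2.699, SE 0.0457), 2.14-fold lower in tumor pTreg than in LN Treg and 13.9-fold lower in tumor tTreg than in LN Treg. The pan-T genes had the same order with larger median folds: 11.3-fold higher in tumor pTreg than in tumor tTreg, and 4.63-fold and 44.3-fold lower in tumor pTreg and tumor tTreg than in LN Treg.

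**Figure D2:**
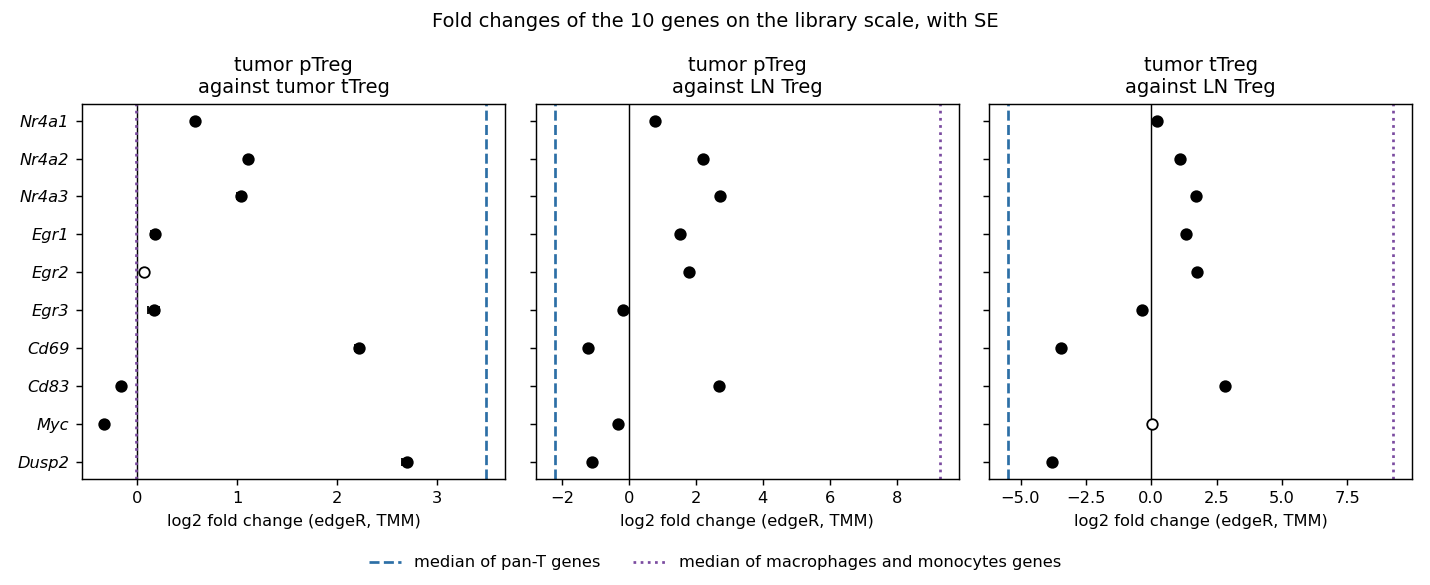
log2 fold changes (x axes) of the 10 genes (rows) in the 3 comparisons on the library scale, with bars for the SE; filled points were called and open points (Egr2 between tumor groups, Myc in tumor tTreg against LN Treg) were not. Dashed and dotted lines mark the medians of the pan-T genes and of the macrophage and monocyte genes, and Cd69 and Dusp2 lie nearest the pan-T line in each panel.

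On the pan-T scale nearly all genes moved 1 way in each comparison. All 10 members were lower in tumor pTreg than tumor tTreg and 0 higher, as were 97.1% and 0.535% of all genes tested. All 10 were higher and 0 lower in tumor pTreg than in LN Treg (90.9% and 4.4% of all genes), and all 10 higher and 0 lower in tumor tTreg than in LN Treg (96.7% and 1.06%). The median of all genes moved to -3.37, 2.21 and 5.56 in the 3 comparisons, so these counts lie near the background and are no result about the members. Relative to that median, members ran between -0.32 (Myc) and 2.71 (Dusp2), between -1.32 (Cd69) and 2.62 (Nr4a3), and between -3.89 (Dusp2) and 2.74 (Cd83).

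Levels per pan-T count were lowest in LN Treg for every member and highest in tumor tTreg. Dusp2 stood at 10.1, 9.88 and 10.3 counts per 100 pan-T counts in tumor pTreg, 16.3, 15.2, 15.9, 16.8 and 15.8 in tumor tTreg; LN Treg had 4.97, 4.73, 5.28 and 5.22. Cd69 stood at 15.1, 15.6 and 15.7 in tumor pTreg, 31.4, 34.9, 35.1, 34.6 and 34.5 in tumor tTreg; LN Treg had 8.68, 8.07, 8.19 and 8.53. These 2 genes changed least on this scale: Dusp2 was 1.59-fold lower in tumor pTreg than tumor tTreg, and 1.999-fold and 3.17-fold higher in tumor pTreg and tumor tTreg than in LN Treg, and Cd69 2.20-fold lower, 1.85-fold higher and 4.08-fold higher. Cd83 stood at 30.4 ± 0.607, 350.3 ± 16.5 and 1.11 ± 0.0368 counts per 100 pan-T counts in tumor pTreg, tumor tTreg and LN Treg, and was 315-fold higher in tumor tTreg than in LN Treg. A level above 100, as for Cd83, Nr4a1 (342 ± 14.4), Nr4a3 (189.5 ± 17.3), Egr1 (363 ± 19.8) and Myc (123 ± 6.24) in tumor tTreg, exceeds the sum of the 18 pan-T genes in those libraries.

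**Figure D3:**
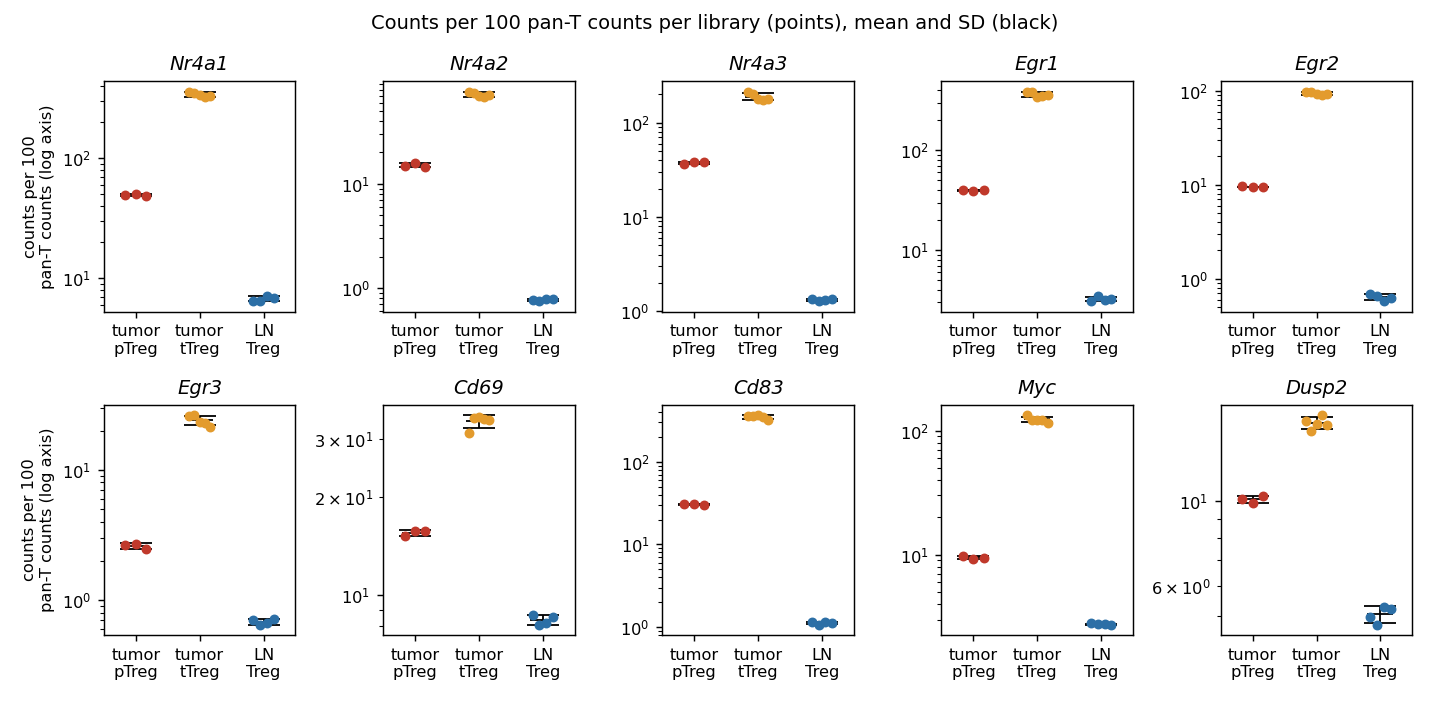
Counts per 100 pan-T counts (log y axes) of the 10 genes in every library of tumor pTreg (n = 3), tumor tTreg (n = 5) and LN Treg (n = 4), with mean and SD in black. Tumor tTreg is highest and LN Treg lowest in each panel, and the 3 groups lie closest for Cd69 and Dusp2.

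Levels of different genes were compared per length, in FPKM. In tumor pTreg the order was Nr4a1 (326 ± 9.23 FPKM), Cd83 (212 ± 5.46), Egr1 (182 ± 0.757), Cd69 (180.0 ± 4.20), Dusp2 (119 ± 3.12), Nr4a3 (106 ± 4.17), Nr4a2 (76.4 ± 4.02), Myc (70.5 ± 1.04), Egr2 (50.3 ± 1.16) and Egr3 (10.5 ± 0.39), with Egr1 and Cd69 overlapping. In tumor tTreg it was Cd83 (239 ± 9.55), Nr4a1 (218 ± 2.95), Egr1 (162 ± 5.48), Myc (88.1 ± 2.57), Nr4a3 (52.7 ± 3.83), Egr2 (48.3 ± 1.70), Cd69 (37.1 ± 3.77), Nr4a2 (35.3 ± 0.431), Dusp2 (18.4 ± 1.25) and Egr3 (9.70 ± 0.701). There Nr4a3 overlapped Egr2 and Cd69 overlapped Nr4a2. In LN Treg it was Cd69 (388 ± 20.5), Dusp2 (296 ± 14.95), Nr4a1 (240.4 ± 12.3), Myc (95.1 ± 2.30), Egr1 (68.4 ± 3.14), Cd83 (35.8 ± 1.36), Nr4a2 (17.7 ± 0.488), Nr4a3 (17.5 ± 0.337), Egr2 (15.2 ± 1.09) and Egr3 (12.7 ± 0.802), with Nr4a2 and Nr4a3 overlapping. Dusp2 thus came next after Cd69 in LN Treg and next to last in tumor tTreg, and Egr3 was last in each group. Other neighbours in these orders did not overlap.

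The make-up of each family within a library does not depend on how libraries are scaled. The NR4A genes summed to 508 ± 14.4 FPKM in tumor pTreg, 306 ± 6.76 in tumor tTreg and 276 ± 12.4 in LN Treg. Nr4a1 made up 64.2 ± 0.925% of that sum in tumor pTreg, 71.3 ± 0.626% in tumor tTreg and 87.2 ± 0.564% in LN Treg. Nr4a2 made up 15.03 ± 0.399%, 11.5 ± 0.277% and 6.43 ± 0.289% and Nr4a3 20.8 ± 0.671%, 17.2 ± 0.868% and 6.36 ± 0.307% in the same order. LN Treg thus held mostly Nr4a1, and the tumor groups more of the other two. The EGR genes summed to 243 ± 1.47 FPKM in tumor pTreg, 220.3 ± 7.23 in tumor tTreg and 96.3 ± 2.64 in LN Treg. Egr1 made up 75.0 ± 0.509%, 73.7 ± 0.493% and 71.1 ± 1.73%, Egr2 20.7 ± 0.370%, 21.9 ± 0.485% and 15.8 ± 1.10%, and Egr3 4.31 ± 0.140%, 4.40 ± 0.228% and 13.2 ± 1.07%. Egr1 dominated each group, and the share of Egr3 was lower in the tumor groups than in LN Treg.

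Of 18 two-sided exact permutation tests on these shares, 6 passed after Benjamini-Hochberg adjustment. They were the 6 shares between tumor tTreg and LN Treg (exact p = 0.0159, the smallest that 5 against 4 libraries can give, adjusted p = 0.0476), with differences of -16.0 percentage points for Nr4a1, 5.10 for Nr4a2, 10.9 for Nr4a3, 2.63 for Egr1, 6.13 for Egr2 and -8.75 for Egr3. With any 1 of the 5 tumor tTreg or 4 LN Treg libraries left out, 0 of the tests passed, since the smallest exact p then grows. With shares of expected counts in place of FPKM, 6 tests also passed. The shares of a family add up to the whole, so these tests depend on each other and the 6 are not separate findings. Tumor pTreg against LN Treg cannot go below an exact p of 0.0571, which all 6 of its shares had, without overlap between groups. Between the tumor groups Nr4a1, Nr4a2, Nr4a3 and Egr1 did not overlap (exact p = 0.0357, adjusted p = 0.0643), with differences of -7.10, 3.50, 3.60 and 1.29 points, while Egr2 (exact p = 0.0714) and Egr3 (exact p = 0.536) overlapped.

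**Figure D4:**
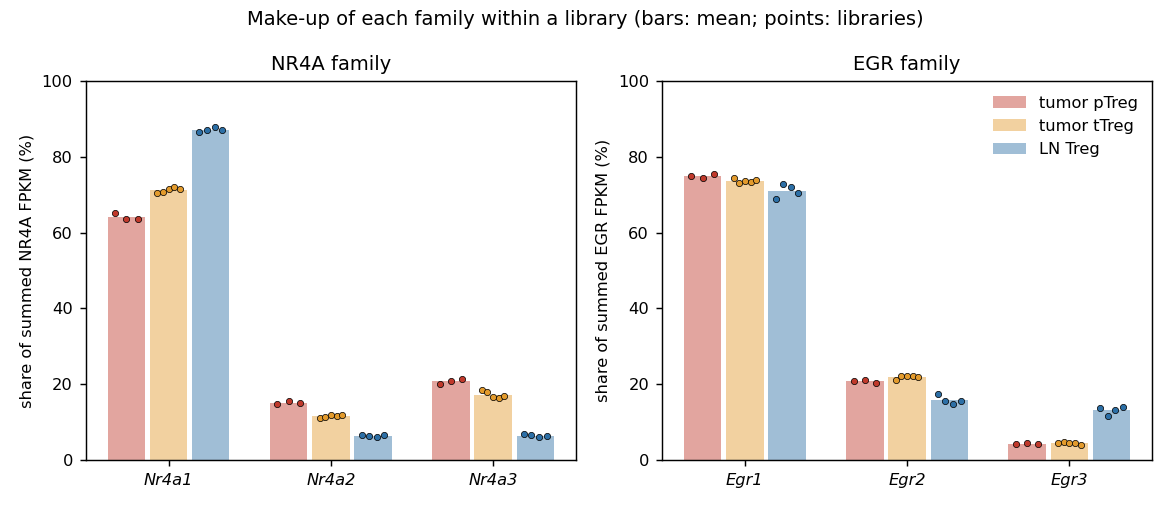
Share of each gene in the summed FPKM of its family (y axes, percent) in tumor pTreg, tumor tTreg and LN Treg; bars are means and points libraries. Nr4a1 makes up 64.2%, 71.3% and 87.2% of the NR4A sum over the 3 groups, and Egr3 4.31%, 4.40% and 13.2% of the EGR sum.

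The counts and FPKM of a gene together give the transcript length by which the authors' quantification divided, and this length was compared after the values of Nr4a1 had differed between units. For Nr4a1 it was 2.07 ± 0.0219 kb in tumor pTreg, 2.08 ± 0.0202 kb in tumor tTreg and 1.75 ± 0.00432 kb in LN Treg. It was 1.18-fold longer in tumor pTreg and 1.19-fold longer in tumor tTreg than in LN Treg, and 7.71% and 7.76% of 8542 genes shifted more in those comparisons. Nr4a1 has 3 annotated coding transcripts of 344 to 2553 bases in GENCODE vM21. Dusp2 was at 1.16 ± 0.0120 kb, 1.16 ± 0.0418 kb and 1.07 ± 0.00854 kb in tumor pTreg, tumor tTreg and LN Treg, and Cd69 at 1.17 ± 0.0383 kb, 1.23 ± 0.0791 kb and 1.35 ± 0.0394 kb. For the other 7 members the ratios between groups ran from 0.966 to 1.03. Which transcripts the libraries held was not measured here.

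**Figure D5:**
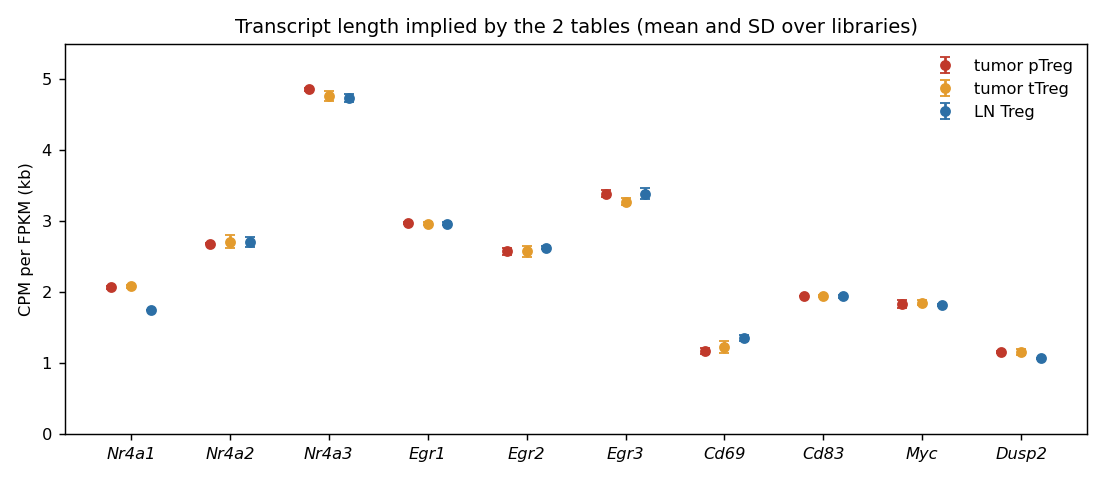
CPM divided by FPKM (y axis, kb, from 0) for the 10 genes in tumor pTreg, tumor tTreg and LN Treg, as mean and SD over libraries. Nr4a1 lies at 2.07 and 2.08 kb in the tumor groups and at 1.75 kb in LN Treg.

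Likeness of pattern was measured as the root mean square distance between log2 CPM profiles over the 12 libraries, each centred on its own mean, and is a description of libraries that fall into 3 groups. Among the members the closest were Egr1 and Egr2 (0.18), Cd69 and Dusp2 (0.22), Egr3 and Myc (0.22) and Nr4a2 and Nr4a3 (0.28), and the farthest were Cd83 and Dusp2 (2.85). Nr4a1 lay 0.55 from Nr4a2 and 0.81 from Nr4a3. The 3 nearest of 9286 other genes were Zc3h12a (0.049), Csrnp1 and Fkbp5 for Nr4a1, Lag3 (0.10), Dock5 and Furin for Nr4a2, and Furin (0.17), Fosl2 and Bhlhe40 for Nr4a3. Zc3h12a, which encodes the RNase Regnase-1, averaged 138, 87.0 and 81.3 CPM in tumor pTreg, tumor tTreg and LN Treg, and Lag3, an inhibitory receptor gene, 42.6, 19.0 and 10.5 CPM. They were Map2k3 (0.043), Trafd1 and Pfkfb3 for Egr1, Atp6ap2 (0.054), Nrp2 and Rnf141 for Egr2, and Med16 (0.053), Clec16a and Fbxo42 for Egr3. Cd69 had Hcst (0.10), Adora2a and Syne3, and Dusp2 had Il21r (0.089), Icos and Gimap7. Il21r, the receptor gene of interleukin 21, averaged 87.3, 14.03 and 197 CPM in the 3 groups. Cd83 had Lamp1 (0.061), a lysosomal membrane gene at 928, 1041 and 145 CPM, with Rhbdf2 and Firre, and Myc had Zfp617 (0.057), Filip1l and Ptcd3.

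The partners of the 2 families were read from lists drawn from general knowledge. Counts of list genes in this and the next paragraphs are on the library scale unless stated. Of 4 corepressors and dimer partners tested, 3 were called higher and 0 lower in tumor pTreg than tumor tTreg (26.8% and 25.3% of all genes). Nab1, which holds back EGR factors, averaged 146 ± 2.01 CPM in tumor pTreg, 111 ± 5.06 in tumor tTreg and 92.2 ± 2.58 in LN Treg. Rxra, a dimer partner of Nr4a1 and Nr4a2, averaged 78.7 ± 2.94, 67.4 ± 2.67 and 43.5 ± 1.56 CPM, and Nab2 70.7 ± 1.48, 64.9 ± 2.29 and 67.1 ± 1.96 CPM. Their log2 fold changes between the tumor groups were 0.40, 0.23 and 0.13. Against LN Treg, 3 were higher and 1 (Rxrb) lower in tumor pTreg (47.6% and 39.8% of all genes). In tumor tTreg 2 were higher and 1 lower (48.1% and 42.3%).

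The other 19 immediate early genes, AP-1 factors among them, mostly were higher in tumor libraries than in LN Treg. In tumor pTreg 17 were higher and 1 lower than in LN Treg (median log2 fold change 0.82), beside 47.6% and 39.8% of all genes tested. In tumor tTreg 17 were higher and 1 lower (0.74), beside 48.1% and 42.3%. Between the tumor groups 10 were higher and 5 lower (0.08), beside 26.8% and 25.3%. Fosl2, an AP-1 subunit gene, averaged 432 ± 5.03 CPM in tumor pTreg, 282 ± 9.003 in tumor tTreg and 71.9 ± 3.37 in LN Treg. Ier3, an early survival gene, averaged 239 ± 2.02, 295 ± 6.81 and 2.09 ± 0.354 CPM in the same order, and Junb, also an AP-1 gene, 1141 ± 17.9, 864 ± 11.1 and 1548 ± 84.2 CPM. Junb was higher in tumor pTreg than in tumor tTreg (log2 fold change 0.41) and lower in both than in LN Treg (-0.34 and -0.74). Of the MAP kinase feedback genes, 5 of 10 were higher and 1 lower in tumor pTreg than tumor tTreg, 8 and 2 in tumor pTreg against LN Treg, and 6 and 4 in tumor tTreg against LN Treg. The same shares of all genes apply to these counts, and the 6 and 4 lie near them. Dusp5, a phosphatase of ERK, averaged 228 ± 3.80 CPM in tumor pTreg, 125 ± 1.06 in tumor tTreg and 154 ± 2.89 in LN Treg, a pattern unlike that of Dusp2.

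On the library scale, genes of the calcineurin and NFAT pathway, which induces NR4A and EGR genes, were mostly higher in tumor pTreg than in tumor tTreg. Between tumor pTreg and tumor tTreg 8 of 10 were higher and 1 lower (median log2 fold change 0.50), beside 26.8% and 25.3% of all genes tested. Per pan-T count 0 were higher and 10 lower, beside 0.535% and 97.1% of all genes. Against LN Treg on the library scale, 3 were higher and 5 lower in tumor pTreg (47.6% and 39.8% of all genes). In tumor tTreg 3 were higher and 7 lower (48.1% and 42.3%). Nfatc2 averaged 71.8 ± 4.56 CPM in tumor pTreg, 29.5 ± 1.08 in tumor tTreg and 148 ± 2.14 in LN Treg, and Nfatc1 139 ± 4.88, 83.4 ± 2.65 and 199.8 ± 6.31 CPM. Both were lower in either tumor group than in LN Treg, whereas Nr4a2, Nr4a3, Egr1 and Egr2 were higher. The 18 pan-T genes were all higher in tumor pTreg than in tumor tTreg, by a median of 11.3-fold, and all lower in either tumor group than in LN Treg, and their part in the pathway's values was not tested.

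Gene groups that NR4A and EGR factors are known to act on in T cells were read next. On the library scale, most of their genes were higher in tumor pTreg than in tumor tTreg. Among 8 anergy genes, 6 were higher and 1 lower in tumor pTreg than tumor tTreg, and 5 were lower and 3 higher in either tumor group than in LN Treg. Between the tumor groups 26.8% of all genes tested were called higher and 25.3% lower. Against LN Treg the shares were 47.6% and 39.8% in tumor pTreg and 48.1% and 42.3% in tumor tTreg. These shares apply to each list in this paragraph. Cblb, a ubiquitin ligase that restrains T cell signals, averaged 95.5 ± 4.45 CPM in tumor pTreg, 37.5 ± 2.03 in tumor tTreg and 291 ± 7.97 in LN Treg, and Dgka, a lipid kinase of anergic cells, 128 ± 3.14, 85.0 ± 2.57 and 1092 ± 21.0 CPM. All 8 checkpoint genes were higher in tumor pTreg than in tumor tTreg (median log2 fold change 1.74), and 3 were higher and 5 lower in either tumor group than in LN Treg. Tigit averaged 43.1 ± 1.02 CPM in tumor pTreg, 4.85 ± 0.497 in tumor tTreg and 53.9 ± 1.32 in LN Treg. All 7 Treg genes of the list, Il2ra and Foxp3 among them, were higher in tumor pTreg than in tumor tTreg and lower in both than in LN Treg, by median log2 fold changes of 1.67, -3.48 and -5.05. Other T cell activation genes gave 14 higher and 0 lower of 16 between the tumor groups, 8 and 8 in tumor pTreg against LN Treg, and 3 higher and 13 lower in tumor tTreg against LN Treg. The 8 and 8 lie near the shares of all genes, and lists of 8 genes are too small to set 3 and 5 apart from them. Icos, a costimulatory receptor gene, averaged 152 ± 5.11, 18.0 ± 1.37 and 318 ± 4.18 CPM, and Tnfaip3, an inhibitor of NF-kB signalling, 1613 ± 60.3, 576 ± 10.7 and 2470.2 ± 10.1 CPM. Ctla4 stands in both the checkpoint and the Treg list and Tnfrsf9 in both the Treg and the activation list. Of the 18 pan-T genes, 18 were higher in tumor pTreg than in tumor tTreg and 18 lower in either tumor group than in LN Treg, and the part of T cell content in the values of these lists was not tested.

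Genes around Myc did not follow a single direction. Of 11 partners and relatives, 5 were higher and 1 lower in tumor pTreg than tumor tTreg, and 4 were higher and 6 lower in either tumor group than in LN Treg. For these and the targets below, the shares of all genes tested were 26.8% higher and 25.3% lower between the tumor groups. Against LN Treg they were 47.6% and 39.8% in tumor pTreg and 48.1% and 42.3% in tumor tTreg. The 4 and 6 lie near these shares. Mxd1, an antagonist of Myc, averaged 125 ± 6.77 CPM in tumor pTreg, 69.4 ± 2.74 in tumor tTreg and 156 ± 3.23 in LN Treg, and Mxi1, another, 117 ± 1.19, 107 ± 3.58 and 30.97 ± 1.01 CPM. Of 18 known targets of Myc, 1 was higher and 11 lower in tumor pTreg than tumor tTreg (median log2 fold change -0.14), 12 higher and 5 lower in tumor pTreg than in LN Treg (0.48), and 13 higher and 5 lower in tumor tTreg than in LN Treg (0.75). Odc1, which starts polyamine synthesis, was the 1 higher between the tumor groups, at 688 ± 6.52 CPM in tumor pTreg, 471 ± 13.0 in tumor tTreg and 186 ± 5.36 in LN Treg. Cdk4, a cell cycle kinase gene, averaged 196 ± 10.7, 269 ± 6.11 and 87.0 ± 1.77 CPM. Hepatoma markers had the order of Cdk4 over the 3 groups, and their part was not tested.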

How the data were processed

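Total RNA of sorted Treg cells was sequenced on a BGISEQ-500, per the labels' protocols. Per the submitters' processing notes reads were handled with STAR 2.7.11a and RSEM 1.3.3 on GRCm38/mm10, and DESeq2 is named; for the gene annotation they used, no name was given in the sources used here. The authors deposited 1 table of expected counts per gene, whole numbers as given, and another of FPKM, both over 55413 genes in 12 libraries. Unused columns of other samples numbered 0.

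The members, gene lists and tests were chosen with earlier results of these data known. Genes named beyond the members are up to 4 per list with the smallest p between the tumor groups, the 2 most abundant of each marker list, and the 3 genes nearest each member; Foxp3 and the LN Treg markers at 0 were named after their values were seen.

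Counts were tested with edgeR 4.0.16 (R 4.3.3): filterByExpr by group, TMM factors, all 12 libraries in 1 quasi-likelihood fit with group as factor, and Benjamini-Hochberg adjustment over 15705 genes. The test was checked on simulated data in which few genes changed. In these data 8184, 13735 and 14187 genes were called in the 3 comparisons, a setting that the check does not cover. For the pan-T scale the summed counts of the 18 pan-T genes replaced the library size. CPM use library totals; errors are SD over libraries unless named SE. Family shares were tested with exact permutation tests (Python 3.11.15, scipy 1.17.1). Alternatives were RLE factors, library totals, no filter, a mean of 5 CPM, DESeq2 1.42.0, limma 3.58.1 on log2 of FPKM + 1 or + 0.1, a mean FPKM of 1, the compared groups alone, a replicate block, 4 CD3 genes as the scale, and each library left out. Within groups, counts of pairs of libraries varied beyond sampling noise (chi-square of 1.65 to 3.97 per degree of freedom). Each library was counted as 1 sample, although this spread may be technical and does not show that libraries came from separate animals. The lengths implied by CPM and FPKM were added after the data were seen.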

Additional observations from a re-analysis of the deposited data

Results flagged for a closer look

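Of 52 sets of 4 or 5 libraries checked, 3 had 1 library far from the rest, and chance gives about 1 in 20. Cd69 stood at 31.4 counts per 100 pan-T counts in tumor tTreg replicate 1, against 34.5 to 35.1 in the other tumor tTreg libraries. Egr2 made up 21.1% of the EGR sum in tumor tTreg replicate 1, against 22.0 to 22.3% in the others. Myc read 168 CPM in LN Treg replicate 4, against 173.9 to 174 CPM in the others. Without the tumor tTreg replicate 1 or the LN Treg replicate 4 the calls of Cd69 and Myc on either scale kept their direction and their side of the threshold.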

How the results depend on the processing

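Under the alternatives that kept every library, the 10 counts of called genes, called members and family shares stayed within 1.5 times their main value. Single genes changed in these cases. Nr4a1 in tumor tTreg against LN Treg turned to -0.14 with each of the 3 FPKM settings. Myc in the same comparison turned to -0.0806 with library totals only and to -0.11 with each FPKM setting, and was called lower each time. Egr3 between the tumor groups lost its call in 5 settings and without tumor pTreg replicate 2, and Egr2 gained one with the tumor groups alone; for these the cause was not tested.

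With each library left out in turn, the family share tests that passed ranged from 0 to 6. The genes called ranged from 7151 to 8206 between the tumor groups, from 13506 to 13727 for tumor pTreg against LN Treg and from 13971 to 14425 for tumor tTreg against LN Treg. The members called ranged from 8 to 9, were 10 and were 9 in the same comparisons, and were 10 throughout on the pan-T scale.

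It was not established whether same-numbered libraries were paired. Their deviations correlated at -0.0496 to 0.0526 over 9621 genes, and 3 or 4 pairs per comparison are too few to exclude pairing. With a replicate block, 7495, 13602 and 14065 genes and 9, 10 and 9 members were called in the 3 comparisons. Precision on the pan-T scale is limited by 2368 to 2492 pan-T counts in tumor tTreg libraries.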
